A study of Mus musculus with 8 samples.

Results

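Chemokine ligands were taken as the protein-coding genes of the deposited tables whose symbol starts with Ccl or Cxcl followed by a digit, together with *Cx3cl1*, *Xcl1*, *Pf4* and *Ppbp*. The rule uses names and no measured value, and it found 33 of the 16305 protein-coding genes, among 26939 genes in all. Of these, 30 reached 10 counts in at least 1 library and are called measured. *Ccl26*, *Ccl28* and *Cxcl17* stayed under 10 counts in every library and were not measured. *Ccl19*, *Ccl20* and *Ccl21* were not analysed here, and *Cxcl11* is labelled a polymorphic pseudogene in the files, so it is no member.

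Chemokines are small secreted proteins that bind G protein-coupled receptors on leukocytes and steer their migration. CCL2, CCL7 and CCL12 draw monocytes mainly through CCR2, while CCL3, CCL4 and CCL5 are inflammatory chemokines that attract monocytes, T cells and NK cells. CXCL9 and CXCL10 are interferon-inducible ligands of CXCR3, a receptor of activated T cells and NK cells, and CCL17 and CCL22 are ligands of CCR4, made by mature dendritic cells and some macrophages. In tumors, macrophages are a known source of many of these ligands.

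The libraries were poly-A RNA-seq of tumor-associated macrophages (TAMs), sorted as viable cells that stain for CD45, CD11b and F4/80 but not for Gr-1. They came, on day 21, from EO771 tumors, a mouse breast cancer line grown in the mammary fat pad. WT mice were C57BL/6J, and Unc93b1 3d/3d mice carry a germline point mutation in the chaperone of the endosomal Toll-like receptors and lack functional TLR3, TLR7 and TLR9. All mice were female, 8 to 14 weeks old. αMARCO is a rat IgG1 antibody (clone ED31) against the scavenger receptor MARCO, given intravenously at 100 µg per dose on days 3, 6, 9 and 12. Both genotypes were studied with and without αMARCO, which gives 4 groups of 2 libraries. The control samples were each pooled from 3 mice, while pooling of the αMARCO samples is not stated, so the n of 2 counts pools and P-values measure the spread between such samples. The labels call the controls untreated or PBS and the protocol names an isotype IgG1, so what the control mice were given is not settled. One Unc93b1 3d/3d control library carries the genotype text 3d/4d beside a title of 3d/3d, and it was kept in its group. The mutation changes a protein in all cells of the mouse, so nothing here separates TAMs from the cells around them.

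The libraries held 15182618 to 26411936 counts, and 3 counts, the detection floor used here, corresponded to 0.114 to 0.198 CPM. CPM are counts scaled to the library size after TMM normalization, and the floor uses the plain total and covers counting error only. *Unc93b1* itself lay at 848 and 965 CPM in WT control, 539 and 660 CPM in Unc93b1 3d/3d control, 749 and 707 CPM in WT αMARCO, and 557 and 640.4 CPM in Unc93b1 3d/3d αMARCO. A point mutation leaves the transcript in place, so these levels do not check the genotype labels. *Marco* had only 1 to 17 counts per library. The macrophage markers *Csf1r* (904 to 1131 CPM) and *Adgre1*, which encodes F4/80 (331 to 719.6 CPM), were high in all 8 libraries. The second Unc93b1 3d/3d αMARCO library stood apart: 13963 genes reached 10 counts in it against 15110 to 16114 in the other 7, ribosomal protein genes took 5.22% of its counts against 2.66% to 4.09%, and *Tlr9* lay at 27.5 CPM in it against 87.1 CPM in its replicate. Counts that use this group, and values that leaving out this library moves, are therefore also given without it, in which case the remaining library is assumed to vary like those of the other group. In bulk samples, fewer cells of a type and less RNA per cell cannot be told apart.

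The ligands differed widely in level. Compared per kilobase of gene length, *Pf4* (mean over 8 libraries 625 CPM per kilobase), *Ccl7* (554), *Ccl4* (382), *Ccl3* (358) and *Ccl2* (328) stood highest, followed by *Ccl12* (326). The 10 highest members of each group held 83.0% of the summed per-kilobase level of all measured members in WT control, 91.0% in Unc93b1 3d/3d control, 88.9% in WT αMARCO and 92.5% in Unc93b1 3d/3d αMARCO. *Pf4* ranked 4 in both WT groups and 1 in both Unc93b1 3d/3d groups. *Ccl4* and *Ccl3* ranked 2 and 3 in both WT groups but 7 and 8 in Unc93b1 3d/3d control. *Ccl8* ranked 6 in WT control, 4 in Unc93b1 3d/3d control and 12 in both αMARCO groups. At the low end, *Ccl27a*, *Cxcl5*, *Ccl1* and *Cxcl12* took the last 4 ranks. The means of *Ccl2* and *Ccl12*, neighbours in this order, differed by less than the spread of either gene over the libraries.

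**Figure D1:**
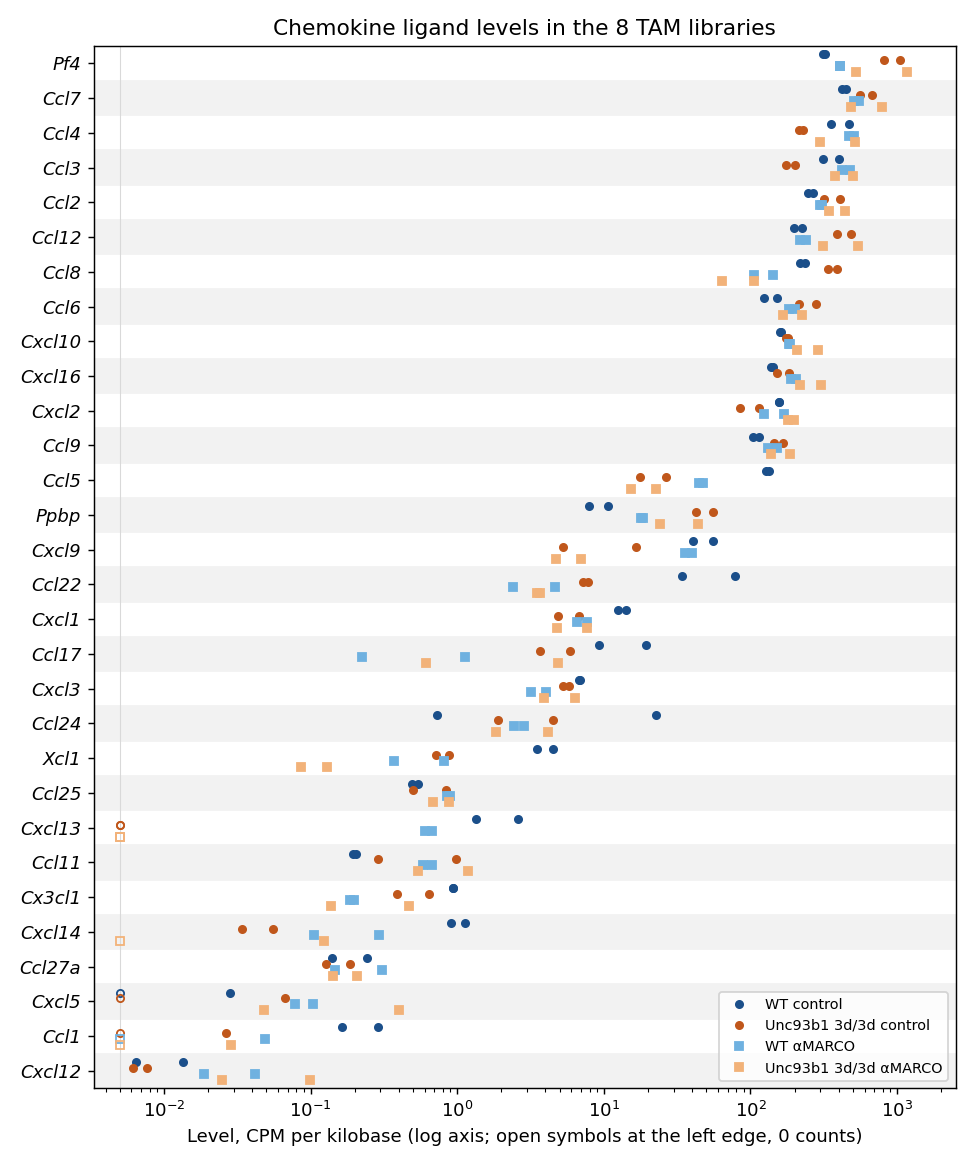
Level of each measured chemokine ligand in each of the 8 libraries, as CPM per kilobase of gene length on a log axis, ordered by the mean over all libraries, with circles for control, squares for αMARCO and open symbols at the left edge for 0 counts. *Pf4*, *Ccl7*, *Ccl4* and *Ccl3* lead, *Cxcl13* is at 0 in all 4 Unc93b1 3d/3d libraries, and the 2 WT control libraries lie far apart for *Ccl24*.

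Across the measured ligands, WT and Unc93b1 3d/3d TAMs from control mice differed in both directions. Fold changes are given as log2 of WT over Unc93b1 3d/3d, and a gene is called where edgeR gave an adjusted *P* up to 0.05 together with a log2 fold change of 0.5 or more in either direction. Of the 25 members tested, 17 were called, against 13% of all 15600 genes tested. WT TAMs were higher for 9 members (36.0% of those tested, against 6.58% of all genes): *Ccl3*, *Ccl4*, *Ccl5*, *Ccl17*, *Cxcl1*, *Cxcl2*, *Cxcl13*, *Cxcl14* and *Xcl1*. They were lower for 8 (32.0%, against 6.4%): *Ccl2*, *Ccl6*, *Ccl7*, *Ccl8*, *Ccl9*, *Ccl12*, *Pf4* and *Ppbp*. The median log2 fold change of the members was 0.62, against -0.0036 over all genes, and it stayed there with *Cxcl13* at its lower bound. *Cxcl13*, *Cxcl14* and *Xcl1* passed the filter on low counts only through the WT libraries. Of the 22 members with a mean of 10 counts or more in both groups, 14 were called, 6 higher and 8 lower. The share of all genes under this restriction was not computed. With the filter set at a mean of at least 50 counts instead, 14 of 22 members were called, against 14.1% of all genes. With all 8 libraries in 1 model, only *Ccl5*, *Cxcl13*, *Ppbp* and *Ccl22* of 27 members were called, against 2.19% of all genes.

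Among the ligands called in WT TAMs, more were lower with αMARCO than higher. Of 27 members tested, 12 were called, against 20.7% of all 15630 genes. Only *Ccl25*, *Cxcl16* and *Ppbp* were higher with αMARCO (11.1% of the members tested, against 8.91% of all genes), and *Ccl5*, *Ccl8*, *Ccl17*, *Cx3cl1*, *Cxcl1*, *Cxcl3*, *Cxcl13*, *Cxcl14* and *Xcl1* were lower (33.3%, against 11.8%). The median log2 fold change of the members was 0.11, against -0.01 over all genes. Another 5, *Ccl2*, *Ccl6*, *Ccl7*, *Ccl9* and *Pf4*, passed the adjusted *P* with rises of less than 0.5. *Ccl17*, *Cxcl14* and *Xcl1* passed the filter on low counts only through the WT control libraries. Of the 22 members with a mean of 10 counts or more in both groups, 9 were called, 3 higher and 6 lower, with no share of all genes computed. With the filter set at a mean of at least 50 counts instead, 9 of 21 members were called, 4 higher and 5 lower, against 22.1% of all genes. With all 8 libraries in 1 model, only the decreases of *Ccl5* and *Ccl22* were called, against 0.987% of all genes. RNA composition moved with this comparison: mitochondrial genes took 1.07% and 1.03% of the counts in WT control and 2.37% and 2.74% in WT αMARCO, and ribosomal protein genes 4.09% and 3.90% against 2.66% and 2.79%. Their part in the result was not tested. This comparison shares its WT control libraries with the genotype comparison above, so a member high in those libraries tends to be called in both.

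In the comparisons that use the Unc93b1 3d/3d αMARCO libraries, no member was called. Between WT and Unc93b1 3d/3d TAMs after αMARCO, edgeR called 0 of 25 members and 0.0% of 15722 genes, with 5 members and 1076 genes at an unadjusted *P* under 0.05. DESeq2 called 2 of 27, *Ccl5* and *Cxcl9*, against 0.756% of all genes. *Cxcl13* was at 0 counts in the Unc93b1 3d/3d libraries of this comparison and passed the filter on low counts only through the WT libraries. Without the library that stood apart, 4 of 27 members were called, against 7.45% of all genes, and all 4 were higher in WT: *Ccl4*, *Ccl5*, *Cxcl9* and *Cxcl13*. Without its replicate, which leaves only the library that stood apart, 13 of 27 were called, 4 higher and 9 lower, against 38.6% of all genes. For αMARCO in Unc93b1 3d/3d TAMs, edgeR called 0 of 23 members and 0.0% of 15428 genes, with 5 members and 744 genes at an unadjusted *P* under 0.05. DESeq2 called 2 of 22, *Ccl3* and *Ccl8*, against 0.209% of all genes. Without that library 8 of 24 members were called, against 3.41% of all genes, with *Ccl3* and *Cxcl2* higher and *Ccl6*, *Ccl8*, *Ccl17*, *Ccl22*, *Pf4* and *Ppbp* lower. The difference between the αMARCO effects of the genotypes was called by edgeR for 0 of 27 members and 0.0% of 16620 genes, with 9 members and 2549 genes at an unadjusted *P* under 0.05. DESeq2 called this difference for 2 of 22, *Ccl22* and *Ppbp*, against 0.742% of all genes. Without that library it was called for 5 of 29 members, against 3.45% of all genes: for *Ccl6*, *Ccl8*, *Pf4* and *Ppbp*, more positive in WT, and *Cxcl1*, more negative in WT. Without its replicate, 8 of 23 members were called for αMARCO in Unc93b1 3d/3d TAMs, against 34.1% of all genes, and 9 of 29 for the difference of effects, against 36.4%. The medians of the members were -0.19, -0.02 and -0.15 in these comparisons, against -0.03, 0.03 and -0.04 over all genes.

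**Figure D2:**
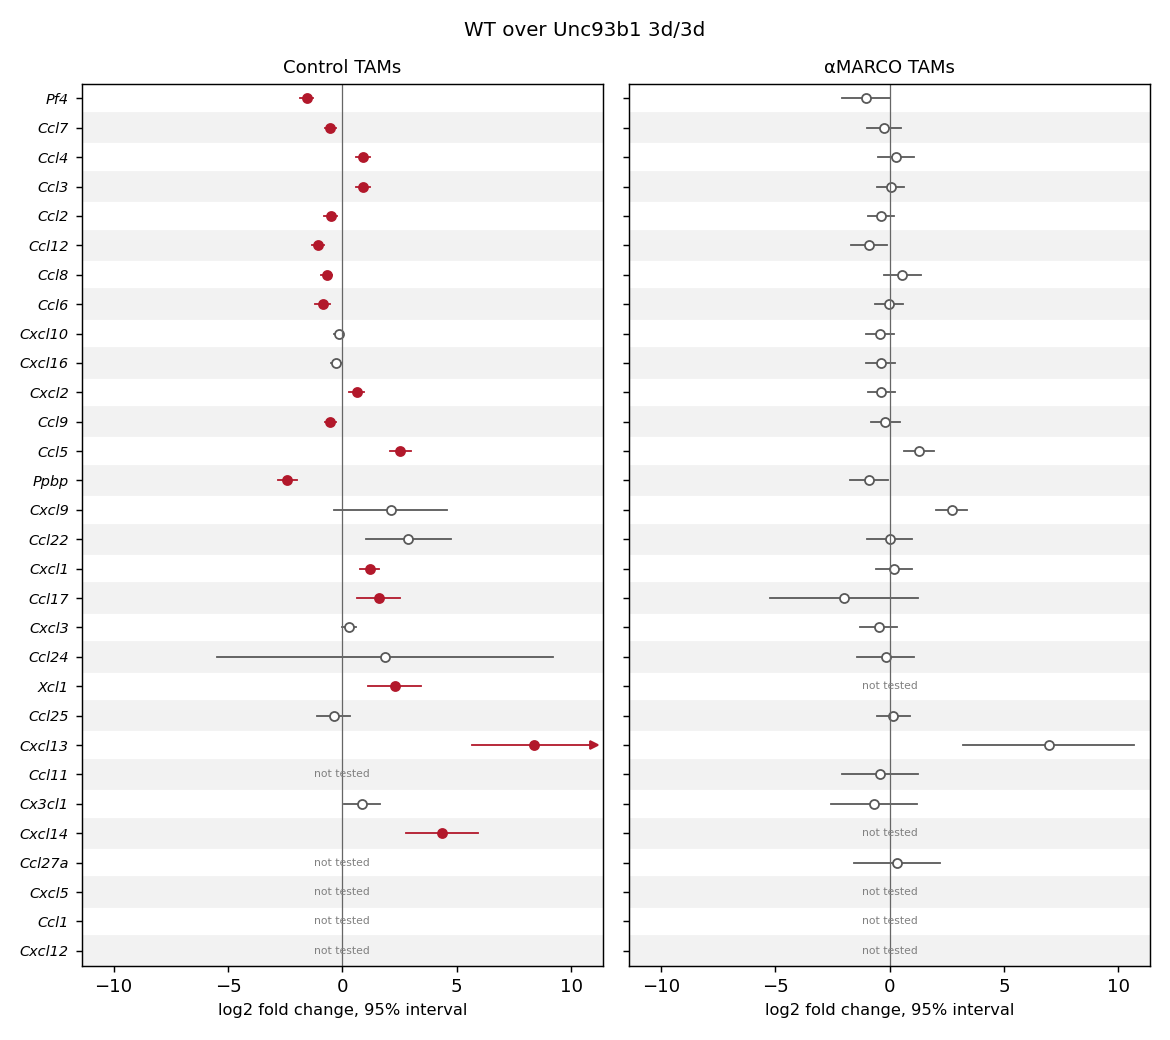
Log2 fold change of WT over Unc93b1 3d/3d for each member, with its 95% interval from edgeR, in control TAMs (left) and αMARCO TAMs (right), filled red where called and open where not. In control TAMs called members lie on both sides of 0. In αMARCO TAMs no member is called, with *Cxcl9* at 2.71 and *Ccl5* at 1.27, and most intervals are wider, but not those of *Ccl24*, *Cxcl9* and *Ccl22*. The *Cxcl13* estimate rests on a group at 0 counts, and its interval in control TAMs is cut at the axis.

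Among the inflammatory CC ligands *Ccl3*, *Ccl4*, *Ccl5*, *Ccl6* and *Ccl9*, *Ccl5*, which encodes RANTES and is made by T cells, NK cells and activated macrophages, differed most between the genotypes, in control and after αMARCO alike, and with αMARCO in WT. It stood at 128 and 122 CPM in WT control, 25.7 and 16.9 CPM in Unc93b1 3d/3d control, 42.6 and 45.4 CPM in WT αMARCO, and 14.8 and 21.8 CPM in Unc93b1 3d/3d αMARCO. The WT libraries were above the Unc93b1 3d/3d libraries under each treatment, with no overlap. In control TAMs, WT exceeded Unc93b1 3d/3d by 2.54 ± 0.187 on the log2 scale (SE, adjusted *P* = 0.000382), a 5.82-fold difference, which was called under all 11 alternatives. In WT TAMs it was 2.82-fold lower with αMARCO (log2 SE 0.0808, interval -1.68 to -1.32, adjusted *P* = 1.93e-05), also called under all 11. After αMARCO the genotypes differed by 1.27 ± 0.254 (adjusted *P* = 0.417), and by 1.58 (adjusted *P* = 1.78e-08) without the library that stood apart. In Unc93b1 3d/3d TAMs the αMARCO effect was -0.22 with a 95% interval of -1.03 to 0.60, and -0.52 (adjusted *P* = 0.239) without that library.

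*Ccl3* and *Ccl4*, the neighbouring genes of MIP-1α and MIP-1β, kept close to each other except in 1 library. Their CPM ratio, *Ccl3* over *Ccl4*, was 1.47 in the first Unc93b1 3d/3d αMARCO library and 0.895 to 1.13 elsewhere. *Ccl3* lay at 239.7 and 306 CPM in WT control, 134 and 155 CPM in Unc93b1 3d/3d control, 322 and 365 CPM in WT αMARCO, and 288 and 383 CPM in Unc93b1 3d/3d αMARCO. *Ccl4* lay at 235 and 311, 150.1 and 142, 308 and 333, and 196 and 339 CPM in the same order. The Unc93b1 3d/3d control libraries were the lowest of all for both genes. WT control exceeded them by 0.90 ± 0.131 for *Ccl3* (adjusted *P* = 0.00274) and by 0.89 ± 0.135 for *Ccl4* (adjusted *P* = 0.00368), 1.87-fold and 1.85-fold, both uncalled with all 8 libraries in 1 model (adjusted *P* = 0.0668 and 0.141). After αMARCO the genotype difference of *Ccl3* was 0.04, with an interval of -0.56 to 0.63, and 0.25 (adjusted *P* = 0.135) without the library that stood apart. In Unc93b1 3d/3d TAMs *Ccl3* was 2.34-fold higher with αMARCO than in control (log2 1.22 ± 0.258, adjusted *P* = 0.823), and this was called without the library that stood apart (adjusted *P* = 5.56e-08) and without its replicate (adjusted *P* = 5.95e-10). For *Ccl4* the genotype difference after αMARCO was 0.26, with an interval of -0.53 to 1.06, and 0.71 without the library that stood apart. The αMARCO effect on *Ccl4* in Unc93b1 3d/3d TAMs was 0.89 ± 0.318 (adjusted *P* = 0.823), and 0.43 without that library. Relative to *Ccl3*, *Ccl5* was highest in WT control, with CPM ratios of 0.533 and 0.399, and lowest in Unc93b1 3d/3d αMARCO, with 0.0512 and 0.0568. Unc93b1 3d/3d control had ratios of 0.191 and 0.11, and WT αMARCO of 0.132 and 0.124.

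*Ccl6* and *Ccl9*, CCR1 ligands found in rodents and made by myeloid cells, went the other way. *Ccl6* was 272 and 222 CPM in WT control and 387 and 505 CPM in Unc93b1 3d/3d control, a log2 difference of -0.87 ± 0.147 (adjusted *P* = 0.00687). *Ccl9* was 347 and 319 CPM against 438 and 505 CPM, a difference of -0.52 ± 0.105 (adjusted *P* = 0.0105), just past the fold threshold. With αMARCO, *Ccl6* reached 358 and 331 CPM in WT and 297 and 405 CPM in Unc93b1 3d/3d TAMs, and *Ccl9* 398 and 461 CPM and 417 and 567 CPM, so that the genotypes overlapped for both genes.

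The CCR2 ligands *Ccl2*, *Ccl7* and *Ccl12* and their neighbour *Ccl8* were all lower in WT among control TAMs. *Ccl2*, the main monocyte chemoattractant, was 302 and 279.8 CPM in WT control, 358 and 464.5 CPM in Unc93b1 3d/3d control, 339.9 and 351 CPM in WT αMARCO, and 389 and 502 CPM in Unc93b1 3d/3d αMARCO. Its control difference was -0.52 ± 0.126 (adjusted *P* = 0.0216). *Ccl7* was 336 and 361, 449 and 539, 439 and 409, and 391 and 628 CPM, with a control difference of -0.52 ± 0.111 (adjusted *P* = 0.0132). *Ccl12*, whose product is also called MCP-5, was 107 and 121, 209 and 258, 128 and 117, and 168 and 290.3 CPM, with a control difference of -1.05 ± 0.121 (adjusted *P* = 0.000755). The differences of *Ccl2*, *Ccl7* and *Ccl9* sit close to the threshold of 0.5, and each was called under 8 of 11 alternatives. Without the second Unc93b1 3d/3d control library they were -0.33, -0.39 and -0.42, and none of the 3 was called. WT libraries were also below both Unc93b1 3d/3d libraries after αMARCO for *Ccl12* and *Ccl2*, by -0.90 ± 0.307 and -0.36 ± 0.221 (adjusted *P* = 0.697 and 0.709). Without the library that stood apart these were -0.46 for *Ccl12* and -0.17 for *Ccl2* (adjusted *P* = 0.00156 and 0.337). The summed fibroblast markers, from cells that can also make CCL2 and CCL7, were higher in Unc93b1 3d/3d than in WT libraries under each treatment. The sums were 190.1 and 159.9 CPM against 112 and 87.7 CPM in control, and 172 and 80.4 CPM against 39.7 and 26.6 CPM after αMARCO. Of the 7 markers, 3 were called lower in WT among control TAMs and none after αMARCO. Their part in these results was not tested.

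*Ccl8*, which lies among these genes, was the one of the 4 that αMARCO lowered in WT. It was 121 and 112 CPM in WT control and 174 and 197.5 CPM in Unc93b1 3d/3d control, a difference of -0.69 ± 0.101 (adjusted *P* = 0.00259). With αMARCO it was 73.0 and 54.0 CPM in WT and 32.8 and 53.7 CPM in Unc93b1 3d/3d TAMs, and all 4 αMARCO libraries were below all 4 control libraries. The log2 fold change was -0.87 ± 0.138 in WT (adjusted *P* = 0.00337, and 0.0539 without the first WT control library) and -2.09 ± 0.306 in Unc93b1 3d/3d TAMs (adjusted *P* = 0.823). The latter was -2.50 (adjusted *P* = 2.02e-23) without the library that stood apart and -1.77 (adjusted *P* = 5.21e-11) without its replicate. The difference between the 2 effects was 1.23 ± 0.346 (adjusted *P* = 0.318), and 1.61 (adjusted *P* = 0.0036) without the library that stood apart.

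The CXCR3 ligands parted by genotype. *Cxcl9* was 122 and 167 CPM in WT control, 15.9 and 49.9 CPM in Unc93b1 3d/3d control, 121 and 108 CPM in WT αMARCO, and 14.3 and 21.0 CPM in Unc93b1 3d/3d αMARCO. Every WT library exceeded every Unc93b1 3d/3d library. In control TAMs the difference was 2.11 ± 0.713 (adjusted *P* = 0.187), with the 2 Unc93b1 3d/3d libraries far apart, and it was called under 3 of 11 alternatives. After αMARCO it was 2.71 ± 0.259 (adjusted *P* = 0.17), a 6.53-fold difference, which was called under 7 of 11 alternatives and was 3.01 (adjusted *P* = 5.18e-13) without the library that stood apart. αMARCO changed it in WT TAMs by -0.33, with an interval of -0.69 to 0.03. *Cxcl10*, its neighbour on chromosome 5, was 362 and 359, 404 and 392, 420.5 and 414, and 469 and 647 CPM in the 4 groups. Its control genotype difference was -0.16 with an interval of -0.37 to 0.05, against -0.37 to 4.59 for *Cxcl9*. As a ratio of CPM, *Cxcl9* over *Cxcl10* was 0.338 and 0.465 in WT control and 0.289 and 0.262 in WT αMARCO. The Unc93b1 3d/3d libraries had ratios of 0.0395 and 0.127 in control and 0.0305 and 0.0325 after αMARCO. The marker sum of nonclassical monocytes was also higher in both WT groups. It was 1476 and 1444 CPM in WT control and 596 and 460.2 CPM in Unc93b1 3d/3d control, and 1244 and 1396 CPM against 825 and 1047 CPM after αMARCO. Of its 8 genes, 4 were called higher in WT among control TAMs and none after αMARCO. Their part in the *Cxcl9* result was not tested.

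The promoters of these neighbours, and below them those of *Ppbp* and *Pf4*, are shown because the first pair moved apart and the second pair moved together. RefSeq promoters (GRCm38.p6, around the annotated start of each gene) were matched by symbol for 23 of the 33 members, 26 promoters in all. Capitals mark matches on either strand to the TATA box core TATAAA or to GGNNNTTCC, a core of NF-κB sites. They also mark GAANNGAAA, 1 form of interferon-regulatory factor site, and other forms were not searched.
Cxcl9, chr5:92328030-92328329, minus strand: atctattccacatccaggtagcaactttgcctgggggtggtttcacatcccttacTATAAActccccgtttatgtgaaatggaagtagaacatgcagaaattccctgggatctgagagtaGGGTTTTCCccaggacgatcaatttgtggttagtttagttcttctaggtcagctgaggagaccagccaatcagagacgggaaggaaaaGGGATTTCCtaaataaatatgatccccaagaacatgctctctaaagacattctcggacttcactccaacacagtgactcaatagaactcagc
Cxcl10, chr5:92348840-92349139, minus strand: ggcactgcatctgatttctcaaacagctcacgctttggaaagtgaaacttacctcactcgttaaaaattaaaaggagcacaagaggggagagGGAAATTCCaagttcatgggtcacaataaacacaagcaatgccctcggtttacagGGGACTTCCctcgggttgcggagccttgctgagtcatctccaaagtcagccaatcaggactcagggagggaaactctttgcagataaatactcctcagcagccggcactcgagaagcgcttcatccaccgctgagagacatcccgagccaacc
Ppbp, chr5:90768268-90768567, plus strand: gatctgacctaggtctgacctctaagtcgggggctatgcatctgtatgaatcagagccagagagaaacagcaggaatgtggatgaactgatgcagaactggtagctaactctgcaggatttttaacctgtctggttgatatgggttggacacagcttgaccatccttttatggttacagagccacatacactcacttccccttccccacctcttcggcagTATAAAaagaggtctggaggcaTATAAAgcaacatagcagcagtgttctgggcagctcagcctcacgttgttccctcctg
Pf4, chr5:90772185-90772484, plus strand: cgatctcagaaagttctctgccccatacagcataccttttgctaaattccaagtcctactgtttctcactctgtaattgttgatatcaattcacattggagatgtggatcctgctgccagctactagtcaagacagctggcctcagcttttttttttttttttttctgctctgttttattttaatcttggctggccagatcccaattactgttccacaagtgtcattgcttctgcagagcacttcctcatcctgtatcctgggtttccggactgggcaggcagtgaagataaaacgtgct
The *Cxcl9* and *Cxcl10* promoters each held 2 matches to GGNNNTTCC, and *Cxcl9* also held 1 TATAAA. *Ppbp* held 2 TATAAA matches and *Pf4* none of the 3. GGNNNTTCC was in 10 of the 26 members' promoters (38.5%) and in 18.5% of all 32851 promoters. TATAAA was in 9 (34.6%, against 13.6%), and GAANNGAAA in 2 (7.69%, against 7.52%), those of *Ccl8* and *Ccl12*. Members of both directions held GGNNNTTCC: it was in the promoters of *Cxcl1* and *Cxcl2*, higher in WT control TAMs, and of *Ccl9* and *Ccl12*, lower there. Both members with GAANNGAAA were lower in WT control TAMs, and of the called members with TATAAA, *Ccl8*, *Ccl9*, *Ccl12* and *Ppbp* were lower and *Cxcl13* was higher. A match is a description of letters in this window and not a binding site. The lack of GAANNGAAA, as in *Cxcl10*, does not show that an interferon-regulatory factor site is absent.

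*Pf4* and *Ppbp*, which encode platelet factor 4 and the precursor of CXCL7, were the ligands most clearly lower in WT control TAMs. *Pf4* was 226 and 234 CPM in WT control, 584 and 759 CPM in Unc93b1 3d/3d control, 296 and 295 CPM in WT αMARCO, and 377 and 836 CPM in Unc93b1 3d/3d αMARCO. *Ppbp* was 11.6 and 8.54, 46.1 and 59.9, 19.5 and 20.1, and 26.3 and 47.3 CPM. For both genes every Unc93b1 3d/3d library exceeded every WT library. The control differences were -1.56 ± 0.128 for *Pf4* and -2.41 ± 0.182 for *Ppbp* (adjusted *P* = 0.000131 for each), 2.95-fold and 5.32-fold lower in WT. After αMARCO they were -1.04 ± 0.411 and -0.89 ± 0.324 (adjusted *P* = 0.709 for each), and -0.35 and -0.41 without the library that stood apart (adjusted *P* = 0.0182 and 0.0486). αMARCO raised *Ppbp* in WT TAMs 1.98-fold (log2 0.98 ± 0.165, adjusted *P* = 0.00192), and changed *Pf4* by 0.37 ± 0.0773 (adjusted *P* = 0.00557). The listed markers of platelets and megakaryocytes were low in all groups. Of the 8 listed in the tables, 4 or 5 in each group had at most 3 counts in both libraries. The sum of the 8 was 1.22 to 3.42 CPM in WT control and 2.38 to 2.64 CPM in Unc93b1 3d/3d control. Only 1 of these markers was tested in control TAMs, and the part of platelets in the *Pf4* and *Ppbp* results was not tested.

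The other CXCR2 ligands, neutrophil attractants encoded beside *Pf4*, had patterns of their own. *Cxcl1* was 26.7 and 23.6 CPM in WT control, 12.7 and 9.08 CPM in Unc93b1 3d/3d control, 12.2 and 14.5 CPM in WT αMARCO, and 14.4 and 9.04 CPM in Unc93b1 3d/3d αMARCO. The WT control libraries thus stood above the other 6. The genotype difference in control was 1.19 ± 0.186 (adjusted *P* = 0.00326) and the αMARCO effect in WT -0.90 ± 0.137 (adjusted *P* = 0.00118). *Cxcl2* was 321 and 321, 236 and 176, 256 and 349, and 372 and 408 CPM. It was higher in WT control by 0.62 ± 0.139 (adjusted *P* = 0.0176), or by 0.42 and uncalled without the second Unc93b1 3d/3d control library, and changed with αMARCO by -0.08 in WT (interval -0.39 to 0.24) and by 0.93 ± 0.258 in Unc93b1 3d/3d TAMs (adjusted *P* = 0.823, and 0.000151 without the library that stood apart). *Cxcl3* was 24.2 and 23.8, 20.2 and 18.5, 11.2 and 14.2, and 13.6 and 22.2 CPM, and changed with αMARCO in WT by -0.91 ± 0.144 (adjusted *P* = 0.00146). *Cxcl5* had at most 11 counts and was not tested. None of the 7 neutrophil markers tested was called between genotypes in control TAMs. With αMARCO in WT, 2 of 5 tested were lower (*S100a8* and *Cxcr2*), with a median log2 fold change of -2.32 over the 5. The summed neutrophil markers went the other way, with 338.7 and 316.3 CPM in WT control and 377.1 and 379.8 CPM in WT αMARCO. *Csf3r*, the most abundant of them, rose by 0.40 on the log2 scale (adjusted *P* = 0.00438), under the fold threshold. The part of neutrophils in the *Cxcl1* and *Cxcl3* results was not tested. *Ly6g* was under 1 CPM in every library.

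*Ccl22* and *Ccl17*, CCR4 ligands, were highest in WT control TAMs. *Ccl22* was 183 and 79.1 CPM in WT control, 18.2 and 16.8 CPM in Unc93b1 3d/3d control, 5.58 and 10.9 CPM in WT αMARCO, and 8.08 and 8.5 CPM in Unc93b1 3d/3d αMARCO. Both WT control libraries exceeded the other 6, and they differed widely from each other. The genotype difference was 2.89 ± 0.568 (adjusted *P* = 0.0734) and the αMARCO effect in WT -3.96 ± 0.772 (adjusted *P* = 0.0662), neither called, and both called with all 8 libraries in 1 model (adjusted *P* = 0.0146 and 0.0227). *Ccl17* was 9.95 and 4.77, 3.01 and 1.88, 0.582 and 0.116, and 0.316 and 2.52 CPM. It was higher in WT control by 1.58 ± 0.409 (adjusted *P* = 0.0303) and changed with αMARCO in WT by -4.45 ± 0.647 (adjusted *P* = 0.00298). The *Ccl17* genotype call was lost without the first WT control library (log2 0.97, adjusted *P* = 0.128) and without the first or second Unc93b1 3d/3d control library (adjusted *P* = 0.0522 and 0.144). After αMARCO, *Ccl22* differed between the genotypes by -0.00 on the log2 scale, with an interval of -0.99 to 0.99, and by 0.04 (adjusted *P* = 0.972) without the library that stood apart.

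Like these ligands, the summed markers of mature dendritic cells were highest in WT control. Their sum was 1147 and 761 CPM in WT control, 297 and 269.8 CPM in Unc93b1 3d/3d control, 395 and 469 CPM in WT αMARCO, and 359 and 384 CPM in Unc93b1 3d/3d αMARCO. Outside WT control the order differed. The sum was lowest in Unc93b1 3d/3d control, where *Ccl22* (18.2 and 16.8 CPM) was above every αMARCO library (5.58 to 10.9 CPM). Of 9 markers tested, 6 were higher in WT among control TAMs and 7 were lower in WT with αMARCO. *Cd83*, the largest part of the WT αMARCO sum, was 304 and 269 CPM in WT control and 261 and 313 CPM in WT αMARCO. *Ccr7*, the receptor that carries such cells to lymph nodes, was 214 and 119 CPM in WT control and 9.25 to 16.5 CPM in the other 6 libraries. Of the defining markers, *Lamp3* had at most 3 counts in both libraries of 3 groups, WT control included. The sort did not remove dendritic cells that carry CD11b and F4/80, and the part of such cells in the *Ccl22* and *Ccl17* results was not tested.

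Among the ligands of CXCR5, CXCR6, CX3CR1 and XCR1, *Cxcl16* was abundant and the rest were scarce. *Cxcl16*, a membrane-bound scavenger receptor and ligand of CXCR6, was 432 and 415 CPM in WT control, 459.5 and 551 CPM in Unc93b1 3d/3d control, 572 and 622 CPM in WT αMARCO, and 661 and 919.5 CPM in Unc93b1 3d/3d αMARCO. It rose with αMARCO in WT by 0.50 ± 0.0871 (adjusted *P* = 0.00222), at the edge of the fold threshold, and was called under 6 of 11 alternatives. *Cxcl13*, the B cell attractant that signals through CXCR5, was 3.00 and 1.55 CPM in WT control, 0.776 and 0.694 CPM in WT αMARCO and 0 in all 4 Unc93b1 3d/3d libraries. In control TAMs the WT level was at least 13.4-fold higher, taking 3 counts per library as the floor (adjusted *P* = 0.00284), and at least 4.33-fold higher after αMARCO (adjusted *P* = 0.478, and 0.0206 without the library that stood apart). Its change with αMARCO in WT was -1.62 ± 0.466 (adjusted *P* = 0.0228), called under 5 of 10 alternatives. It was -1.07 (adjusted *P* = 0.163) without the first WT control library, and the call was also lost without the first or second αMARCO library (adjusted *P* = 0.0926 and 0.112). *Xcl1*, made by NK cells and CD8+ T cells and read by XCR1 on type 1 dendritic cells, was 2.37 and 1.83, 0.377 and 0.457, 0.194 and 0.424, and 0.0451 and 0.068 CPM. WT control exceeded Unc93b1 3d/3d control by 2.29 ± 0.512 (adjusted *P* = 0.0156, and 0.0507 and 0.0575 without the first library of either group), and with αMARCO in WT it changed by -2.69 ± 0.528 (adjusted *P* = 0.00401). *Cx3cl1*, fractalkine, was 3.68 and 3.66, 2.51 and 1.52, 0.776 and 0.733, and 1.85 and 0.544 CPM, and changed with αMARCO in WT by -2.27 ± 0.348 (adjusted *P* = 0.00122).

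*Cxcl14*, a chemokine of epithelia and stroma, was 2.05 and 1.66 CPM in WT control, 0.0628 and 0.101 CPM in Unc93b1 3d/3d control, 0.534 and 0.193 CPM in WT αMARCO, and 0.226 and 0 CPM in Unc93b1 3d/3d αMARCO. The Unc93b1 3d/3d control libraries were below the floor of 3 counts. WT control exceeded them by 4.35 ± 0.699 (adjusted *P* = 0.00386), an estimate that depends on the prior count, and with αMARCO in WT *Cxcl14* changed by -2.38 ± 0.564 (adjusted *P* = 0.00979, and 0.0816 without the second αMARCO library). *Ccl25*, a ligand of CCR9, was 4.05 and 3.66 CPM in WT control, 6.28 and 3.70 CPM in Unc93b1 3d/3d control, 6.31 and 6.67 CPM in WT αMARCO, and 6.50 and 5.10 CPM in Unc93b1 3d/3d αMARCO, and rose with αMARCO in WT by 0.76 ± 0.221 (adjusted *P* = 0.0242, and 0.114 and 0.155 without the first or second αMARCO library). *Ccl24*, an eotaxin that acts on CCR3, rested on a single library: it was 29.5 and 0.942 CPM in WT control, 2.45 and 5.83 CPM in Unc93b1 3d/3d control, and 2.39 to 5.37 CPM in the 4 αMARCO libraries. Its genotype difference in control was 1.85 with an interval of -5.50 to 9.19, and -2.14 (adjusted *P* = 0.00862) without the first WT control library. *Ccl11*, *Ccl27a*, *Ccl1* and *Cxcl12* stayed at or below 1.29 CPM in every library, and none was called in any comparison that tested it.

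**Figure D3:**
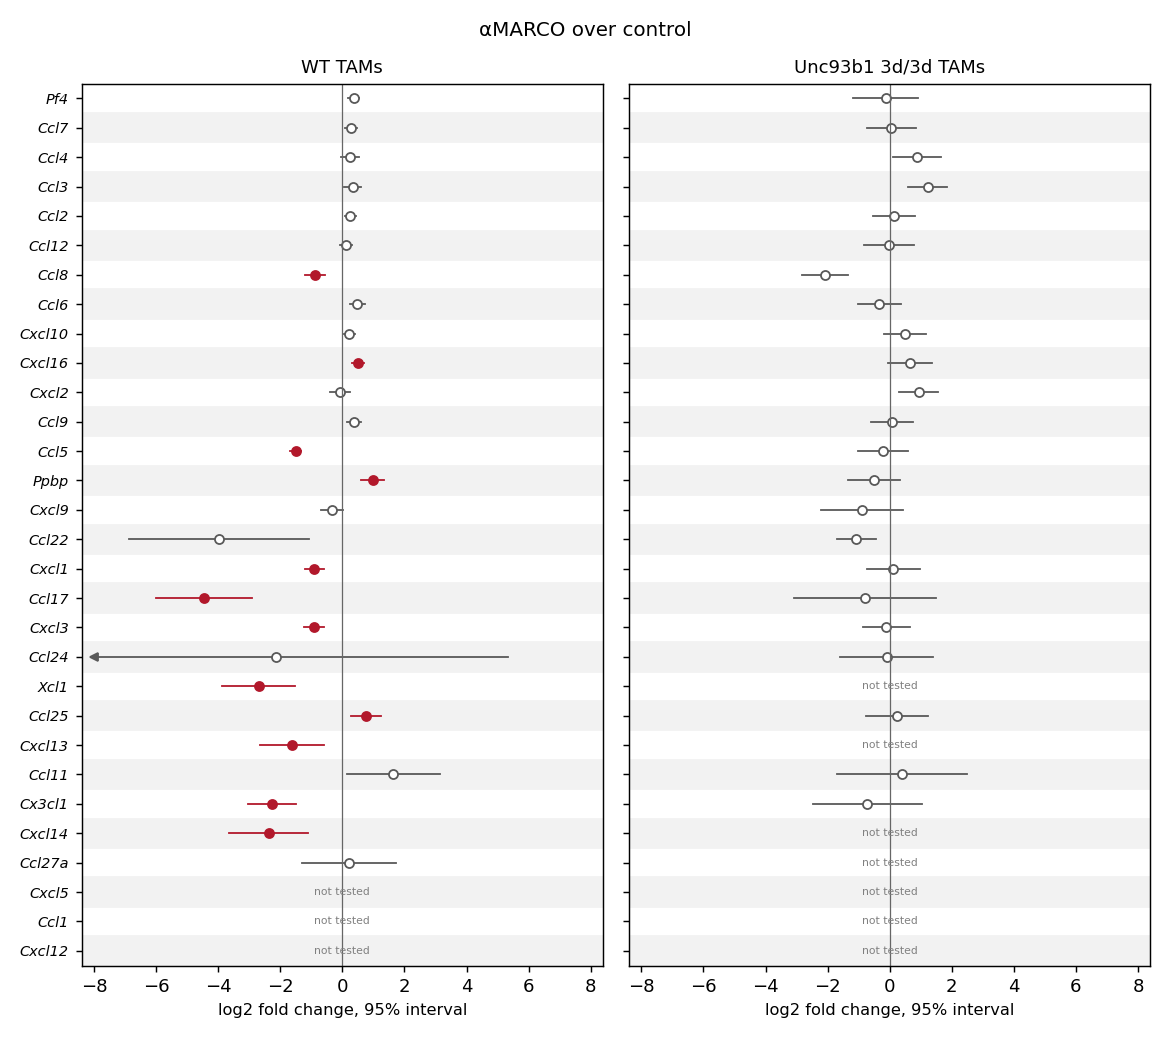
Log2 fold change of αMARCO over control for each member, with its 95% interval from edgeR, in WT TAMs (left) and Unc93b1 3d/3d TAMs (right), filled red where called and open where not. In WT TAMs *Ccl17*, *Xcl1*, *Cxcl14*, *Cx3cl1* and *Cxcl13* lie farthest below 0 among the called members, and in Unc93b1 3d/3d TAMs no member is called while *Ccl8* lies at -2.09 and *Ccl3* at 1.22. *Ccl17*, *Xcl1* and *Cxcl14* had a mean under 10 counts in WT αMARCO. The *Ccl24* interval in WT is cut at the axis.

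Summed markers of T cells and NK cells, like *Ccl5* and *Xcl1*, which those cells also make, were highest in WT control. The sum of the T cell markers was 121 and 140.1 CPM in WT control, 23.0 and 11.2 CPM in Unc93b1 3d/3d control, 11.4 and 16.9 CPM in WT αMARCO, and 5.96 and 7.07 CPM in Unc93b1 3d/3d αMARCO. All 12 were called higher in WT among control TAMs and all 12 lower with αMARCO in WT. None of them was at 0 in both libraries of any group, and *Cd3e* was 4.58 and 8.81 CPM in WT control and 0.316 to 1.57 CPM elsewhere. The NK cell sum was 180.1 and 160.3 CPM in WT control and 44.4 to 70.6 CPM in the other 6 libraries. Of its 10 genes, 4 were higher in WT among control TAMs and 6 were lower with αMARCO in WT. The sort used no T cell or NK cell marker, and the part of these cells in the *Ccl5*, *Xcl1* and *Cxcl13* results was not tested. The macrophage sum overlapped between the genotypes within each treatment. Of its 10 genes, 1 was called higher and 2 lower in WT among control TAMs, and none after αMARCO. With αMARCO in WT it was 10259 and 10977 CPM against 13104 and 13934 CPM in control, with no overlap, and 4 of 10 macrophage markers were lower (*Adgre1*, *C1qa*, *C1qb* and *C1qc*).

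**Figure D4:**
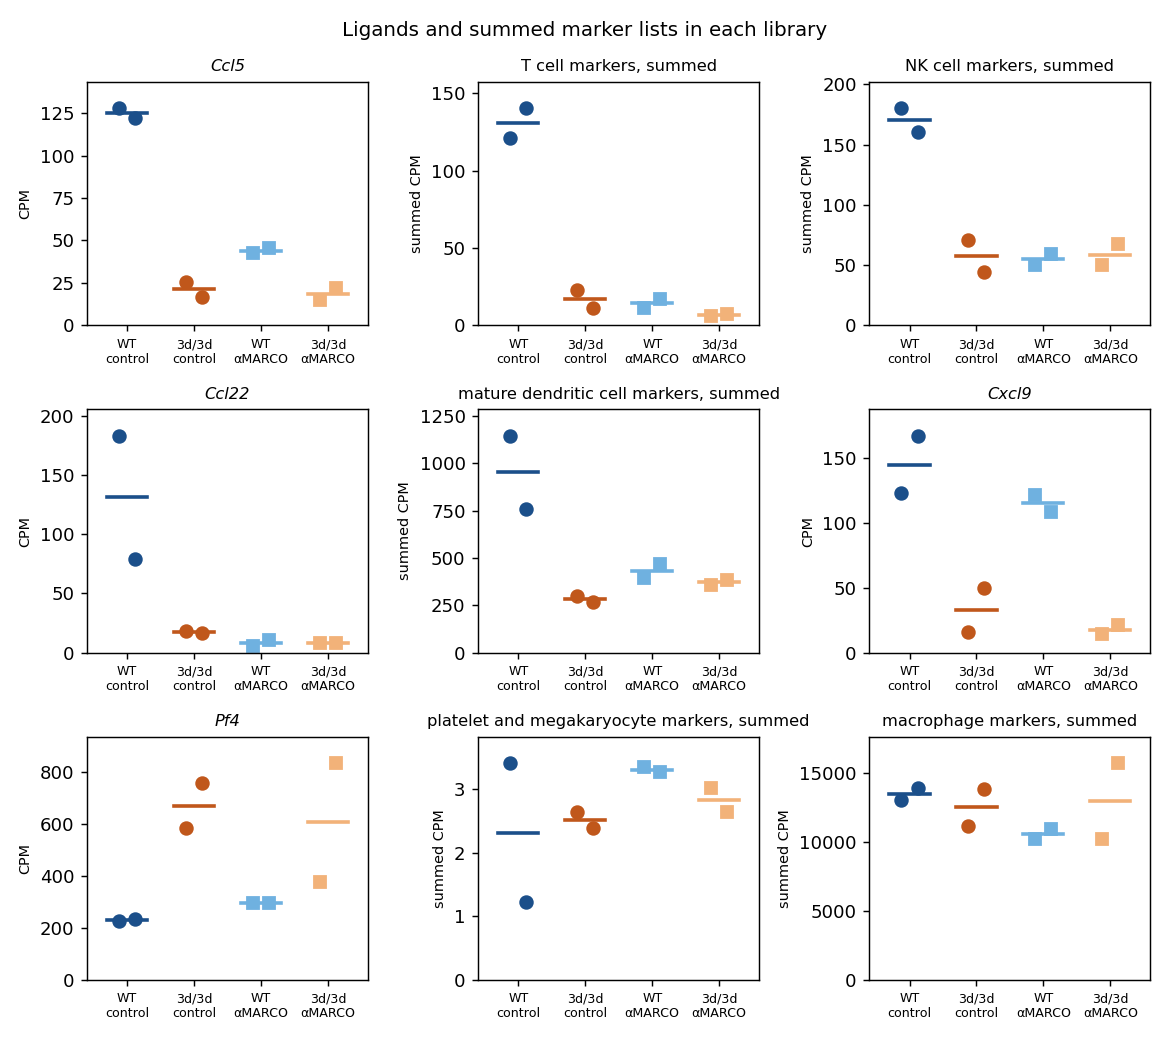
CPM of *Ccl5*, *Ccl22*, *Cxcl9* and *Pf4* and summed CPM of 5 marker lists in each of the 8 libraries, with a bar at each group mean (n = 2) and every axis starting at 0. *Ccl5*, *Ccl22* and the T cell, NK cell and mature dendritic cell sums are highest in WT control. *Cxcl9* is high in both WT groups, and *Pf4* is higher in Unc93b1 3d/3d. The platelet marker sum is under 4 CPM in every library.

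Most ligands lie in clusters, and neighbours within a cluster did not share a direction throughout (coordinates on GRCm38, as deposited). On chromosome 11, *Ccl2*, *Ccl7*, *Ccl11*, *Ccl12*, *Ccl8* and *Ccl1* lie between 82035571 and 82305690, and all 4 tested there were lower in WT control TAMs. The second block, *Ccl5*, *Ccl9*, *Ccl6*, *Ccl3* and *Ccl4* between 83525778 and 83664683, was mixed, with *Ccl5*, *Ccl3* and *Ccl4* higher and *Ccl9* and *Ccl6*, which lie between them, lower. On chromosome 5, *Cxcl5*, *Ppbp*, *Pf4*, *Cxcl3*, *Cxcl1* and *Cxcl2* lie between 90759360 and 90905938, where *Ppbp* and *Pf4* were lower and *Cxcl1* and *Cxcl2* higher in WT control.

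**Figure D5:**
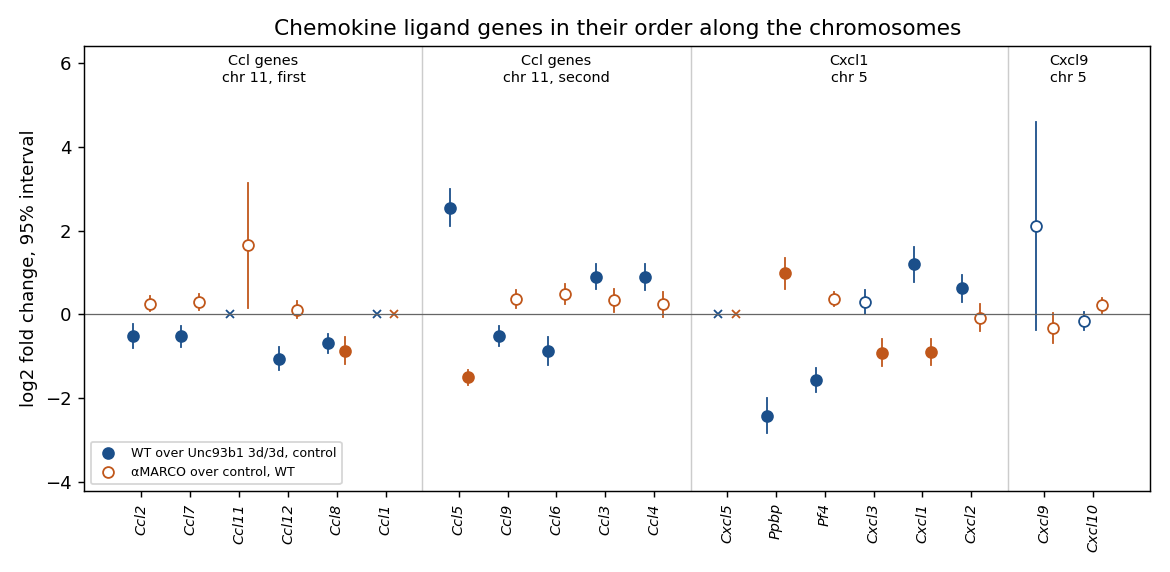
Log2 fold changes with 95% intervals for the members of 4 gene clusters in chromosomal order, for WT over Unc93b1 3d/3d in control TAMs (blue) and αMARCO over control in WT TAMs (orange), filled where called, open where not and a cross where not tested. The first cluster of chromosome 11 lies below 0 for genotype, and the other 2 clusters with called members hold called members on both sides of 0.

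Of the receptors for these ligands, 17 of 19 were tested in control TAMs, and 5 were higher and 3 lower in WT. Over all genes tested, 6.58% were higher and 6.4% lower. *Ccr2*, which binds CCL2, CCL7 and CCL12, was 328 and 228 CPM in WT control and 416 and 406 CPM in Unc93b1 3d/3d control (log2 -0.58, adjusted *P* = 0.0455), so receptor and ligands were both lower in WT. *Ccr1* was 258 and 161 CPM against 395 and 431 CPM (log2 -0.99, adjusted *P* = 0.0346). *Cx3cr1* was the other one that was lower. *Ccr7*, *Ccr8*, *Cxcr5*, *Cxcr6* and *Xcr1*, receptors of lymphocytes and dendritic cells, were the 5 that were higher. With αMARCO in WT, 9 of 17 receptors were lower, including these 5, and *Ccr2* and *Cxcr4* were higher. The shares of all genes were 11.8% lower and 8.91% higher. In the remaining comparisons edgeR called no receptor. Of 5 atypical receptors, which take up chemokines without signaling, *Ackr3* was the only one called, lower with αMARCO in WT (log2 -2.03, adjusted *P* = 0.00614).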

How the data were processed

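RNA-seq was done by the authors on 8 TAM libraries. Per the labels and methods, reads were trimmed with fastp, aligned with HISAT2 2.0.5 to GRCm38 and counted per gene with featureCounts 1.5.0. The annotation release and strand setting are not given in the sources used here. The raw counts deposited by the authors in 3 tables were joined by gene identifier. The 95230 counts that tables share did not differ in any case, and 11598 counts of genes a table leaves out were set to 0. Where this could be checked, such genes had at most 1 count. The deposited normalised values, FPKM, group means and the authors' own fold changes and P-values were not used. Samples were grouped by their titles.

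Each comparison was fitted to its 4 libraries with edgeR 4.0.16 in R 4.3.3 (TMM factors, filterByExpr, robust quasi-likelihood F-test), and the difference of αMARCO effects to all 8, with Benjamini-Hochberg adjustment over all genes tested. *P* denotes these values, ± the SE, and intervals are 95%. The scripts were tested on simulated data. DESeq2 1.42.0, other scalings and filters, the replicate block and leaving out each library were the alternatives. Replicate numbers were not used to pair the samples in the main fits. Levels between genes were compared per kilobase of the deposited gene length. The members, classes and marker lists were chosen with earlier results of these data known. Every member could be named. Values by library were given for members called in at least 1 of the 5 comparisons, for *Ccl5*, *Cxcl9* and *Pf4*, which the study names or plots, and for the 5 members highest per kilobase. Other genes were named only from the receptor and marker lists, and *Cxcl10*, *Ccl22* and *Ccl24* were given in full as neighbours or for their spread, after their values were seen. The values of 1 receptor gene are not reported here.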

Additional observations from a re-analysis of the deposited data

How the results depend on the processing

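The number of ligands called in control TAMs by genotype was 17, and with all 8 libraries in 1 model it was 4. For αMARCO in WT TAMs it was 12, and 2 in that model. Leaving out 1 library gave 13 to 17 and 9 to 14 calls in these comparisons, with 1493 to 2232 and 1940 to 3951 of all genes called. Between genotypes after αMARCO, where 0 were called, DESeq2 called 2, a fit with no filter 1 and the replicate block 1, and leaving out 1 library gave 1 to 13, in fits that called 17 to 6366 of all genes. For αMARCO in Unc93b1 3d/3d TAMs, also 0, the same settings gave 2, 2, 1 and 0 to 8, the last with 1 to 5500 of all genes called. For the difference of αMARCO effects, DESeq2 called 2, no filter 2, and leaving out 1 library 0 to 9, with 0 to 6440 of all genes called. The replicate block gave 17 calls in control TAMs and 12 for αMARCO in WT, against 15.4% and 19.7% of all genes. DESeq2 called 19 and 11 members there, against 6.98% and 10.2% of all genes. In the other comparisons, in the order above, the fit with no filter called 0.415%, 0.7% and 0.564% of all genes. The replicate block called 0.617%, 0.0324% and 0.0% in these. Deviations of same-numbered samples correlated at -0.077 to 0.135 over 16620 genes. Such weak values cannot settle whether same-numbered samples shared a batch. *Ccl24* reversed without the first WT control library: its log2 fold change was -2.14 between genotypes in control and 1.85 for αMARCO in WT, against 2.80 and -3.11 without the second. With 2 libraries per group, calls rest on few degrees of freedom, and members under the 3-count floor could not be compared. The cause of these changes was not tested, except that leaving out a library or a filter changes what is fitted.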

Other observations

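*Cxcl11*, the other CXCR3 ligand, is annotated as a polymorphic pseudogene and was therefore no member. It was 12.3 and 12.2 CPM in WT control, 18 and 15.8 CPM in Unc93b1 3d/3d control, 22.1 and 27.5 CPM in WT αMARCO, and 34.2 and 40.0 CPM in Unc93b1 3d/3d αMARCO. Its lowest values were thus in WT control, where *Cxcl9* was high.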
